A study of Homo sapiens with 14 samples.

Results

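The miRNAs described here are the mature products of human hairpins numbered 6716 to 6895, a block of entries that lie largely in introns, some of them short. They were chosen by their counts in m7G-RIP-seq, as the rows with such a number that had at least 10 counts in at least 3 of its 10 libraries. The count tables held 2588 mature miRNAs, of which 351 carried a number in this block and 793 of any number passed the count rule. Of the 351, 63 passed it and are called members below. They were 29 products of the 5p arm and 34 of the 3p arm of 57 hairpins, and only 6 hairpins (miR-6741, miR-6766, miR-6777, miR-6805, miR-6862 and miR-6894) had both arms among the members. Of the 351 rows, 47 had no count in any of the 14 libraries.

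Small RNA of A549, an established human lung adenocarcinoma cell line, was profiled for N7-methylguanosine (m7G), a guanosine methylated on its base. Both assays named below were run on A549, and all libraries came from total RNA of cells that received no other treatment. Per the study's protocol, the RNA of both assays was first decapped, to take off the m7G caps of mRNA. In BoRed-seq, RNA was reduced with NaBH4 (Red, 2 libraries) or received NaBH4 that had been quenched with acid (Ctrl, 2 libraries). Low pH then removes the reduced base, a biotin-coupled aldehyde reactive probe binds the abasic site, and streptavidin beads collect the RNA, so that both Red and Ctrl went through a pulldown. In m7G-RIP-seq, heat-denatured RNA was immunoprecipitated with an antibody against m7G (IP, 5 libraries) and compared with the RNA before immunoprecipitation (Input, 5 libraries). The labels number the replicates and do not say whether they were separate cultures, so p-values measure the spread between these libraries, which may be technical.

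Most miRNA hairpins are cut out of a long primary transcript by Drosha and then cut by Dicer into a duplex of a 5p and a 3p strand. A mirtron is instead a short intron that is excised by the spliceosome, debranched and folded into a hairpin that Dicer can cut without Drosha. Its 3p strand can therefore end at the intron's last bases, the AG of the splice acceptor. Human mirtron strands are typically G-rich on the 5p side and pyrimidine-rich on the 3p side.

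RefSeq mature sequences (GRCh38.p14) were matched by name for 53 members, 24 of them 5p and 29 3p. The sequences below are of the members on which the comparisons turn, 5′ to 3′, with the seed (bases 2 to 8) in capitals. The first lines give 5p strands that were higher in IP, including miR-6779-5p and miR-6780a-5p, which share a seed.
miR-6741-5p: gUGGGUGCuggugggagccgug
miR-6779-5p: cUGGGAGGggcuggguuuggc
miR-6780a-5p: uUGGGAGGgaagacagcuggaga
miR-6819-5p: uUGGGGUGgagggccaaggagc
miR-6805-5p: uAGGGGGCggcuuguggagugu
miR-6724-5p: cUGGGCCCgcggcgggcgugggg
The next lines give 3p strands, of which miR-6741-3p, miR-6777-3p and miR-6772-3p were higher in IP and miR-6775-3p and miR-6793-3p had no IP count, and then miR-6840-5p, the 5p strand that was lower in IP.
miR-6741-3p: uCGGCUCUcucccucacccuag
miR-6777-3p: uCCACUCUccuggcccccag
miR-6772-3p: uUGCUCCUgacucugugcccaca
miR-6775-3p: aGGCCCUGuccucugccccag
miR-6793-3p: uCCCCAACcccugcccgcag
miR-6840-5p: aCCCCCGGgcaaagaccugcagau

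The arms had opposite base composition. The 24 sequenced 5p members had a median of 50% G and 13.6% C, and 23 of them held GGG, searched on the mature strand alone. The 29 sequenced 3p members had a median of 14.3% G and 47.6% C, and 0 of them held GGG. Among the other miRNAs past the count rule, 34.9% of 252 sequenced 5p strands and 27.8% of 266 sequenced 3p strands held it. In sequenced block rows that did not pass the rule, 81.6% of 125 5p strands and 4.03% of 124 3p strands held it. The trait was thus shared by the block. The exception among 5p members was miR-6744-5p, from an intron of the airway mucin gene MUC5B, whose longest run of G was 2. The members had 51 different seeds, and 2 seeds were shared, UGGGAGG by the pair of 5p strands above and CUCACCC by miR-6784-3p and miR-6862-3p.

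By GENCODE v44, 51 of the 53 sequenced members lay in an intron on their own strand, taking the shortest intron that holds the strand. The median length of that intron was 237 bases, against 5295 bases for the other miRNAs past the count rule. It was at most 200 bases for 24 members (45.3% of the sequenced ones) and for 36.4% of the 305 sequenced rows of the block. Of the sequenced members, 0 began within 5 bases of the intron's first base. Of the 28 intronic 3p members, 21 ended exactly on the intron's last base and the other 7 ended 1 to 4 bases before it, whereas 8.35% of 491 intronic 3p rows of other numbers ended on it. In the 124 intronic 3p rows of the block that did not pass the count rule the share was 76.6%. The 23 intronic 5p members ended 28 to 70 bases before the intron's end. Of the sequenced 3p members, 21 of 29 ended in AG and 18 of these in CAG.

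**Figure D1:**
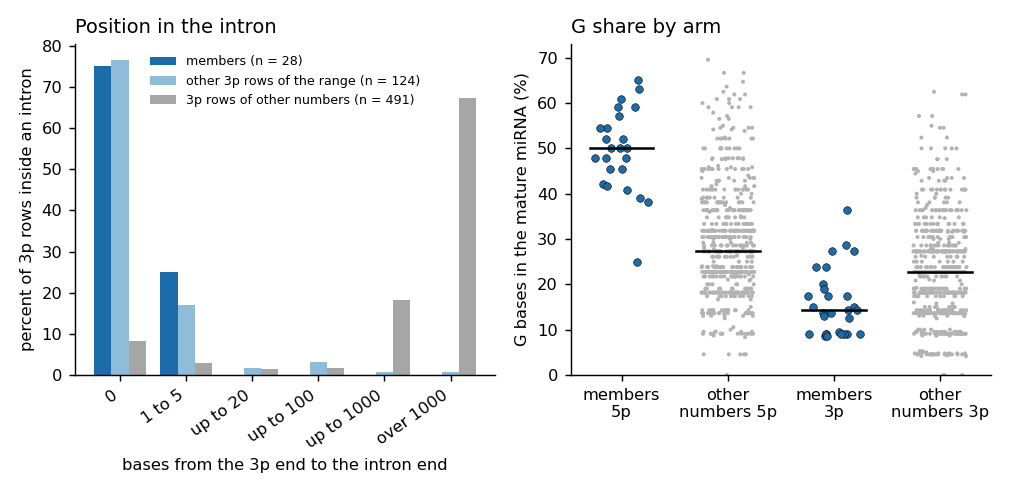
The left panel plots the distance in bases from the end of the 3p strand to the end of its intron (grouped, horizontal axis) as percent of intronic 3p rows, for 28 members, 124 other rows of the block and 491 rows of other numbers. The right panel plots G as percent of bases of each mature miRNA, with lines at the medians: members sit at a median of 50% on the 5p arm and 14.3% on the 3p arm.

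miR-6777 (5p strand at chr17:17813518-17813540, minus strand) lies in an 89-base intron of SREBF1, a transcription factor of lipid synthesis, miR-6805 (5p strand at chr19:55388186-55388207, plus) in a 194-base intron of the ribosomal protein gene RPL28, and miR-6894 (5p strand at chrX:53198917-53198940, minus) in an 88-base intron of KDM5C, a histone H3 lysine demethylase. The introns were longer for miR-6779 in LASP1 (567 bases; 5p strand at chr17:38914984-38915004, plus), miR-6780a in EZH1 (792 bases; chr17:42708124-42708146, minus) and miR-6819 in MYH9 (1405 bases; chr22:36286881-36286902, minus). The 2 sequenced members outside introns were miR-6720-3p at chr6:1390324-1390345 (minus) and miR-6724-5p. miR-6724 has 4 loci on chromosome 21 in RefSeq, and at 3 of them the start of a 45S pre-ribosomal RNA gene lies 582 to 601 bases beyond the hairpin. All 10 m7G-RIP-seq counts of miR-6724-5p were multiples of 4, as were those of miR-6859-5p, which also has 4 loci, and those of both arms of miR-6862, with 2 loci, were multiples of 2. The count rule and the ranks by abundance use these counts as deposited, not divided by these factors, so the membership and rank of such rows are uncertain.

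Library totals were 242085 to 277498 counts in Red, 4678102 to 5874405 in Ctrl, 2854811 to 6452759 in IP and 7097379 to 14874685 in Input. The members were rare: their summed share was 131 to 162 CPM (counts scaled to a fixed library total) in Input and 241 to 439 in IP, where it was 419 to 439 in replicates 1 to 3 and 241 to 262 in replicates 4 and 5. The abundant miR-21-5p took 38.0% to 46.3% of Input counts and 4.64% to 6.27% of IP counts, which moves every such share. Normalized counts (counts divided by median-of-ratios size factors) are therefore used below. The median member had a mean normalized count of 13.2 over the 10 libraries, 41 members were below 20 and 9 reached 50. With such counts the median standard error (SE) of a member's log2 enrichment was 0.78, against 0.55 over all 793 tested. Of 13 miRNAs known for other lineages, 12 were under 10 CPM in every Input library (miR-9-5p was not). Of the 7 epithelial ones listed, 3 were (miR-200a-3p, miR-200b-3p, miR-200c-3p and miR-429 were not).

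In m7G-RIP-seq the antibody comparison asks which miRNAs are over-represented after immunoprecipitation. Of the 63 members, 25 were enriched, 4 were depleted and 34 were not called at an adjusted p under 0.05 in the DESeq2 Wald test. Over all 793 miRNAs tested, 24.7% were enriched and 28.9% depleted. Among 5p members 15 of 29 were enriched and 1 depleted, with 30.1% enriched and 29.5% depleted over all 5p rows tested. Among 3p members 10 of 34 were enriched and 3 depleted, with 17.0% and 33.0% over all 3p rows. The median log2 enrichment was 1.75 for 5p members and 0.81 for 3p members, against 0.03 for the other 273 5p rows and -0.47 for the other 284 3p rows. These counts and medians support nothing by themselves, because the rule that chose the members read the same libraries.

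How a member passed the rule differed by arm. Of the 5p members, 10 passed it in both groups, 15 through IP libraries alone, 2 through Input alone and 2 only when the groups were pooled. For 3p members these numbers were 18, 1, 9 and 6. For a member that passed through IP alone, the choice strongly favoured a higher level there: 12 of those 15 5p members were enriched, against 3 of the 10 that passed in both groups. Of the 18 3p members that passed in both groups, 9 were enriched and 1 was depleted. Over both arms, 28 members passed in both groups, and of these 12 were enriched and 2 depleted, with a median log2 enrichment of 1.06. Of all 793 tested miRNAs, by whichever group they passed, 24.7% were enriched and 28.9% depleted. The shares among other miRNAs that passed in both groups were not computed, so a like comparison is missing.

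**Figure D2:**
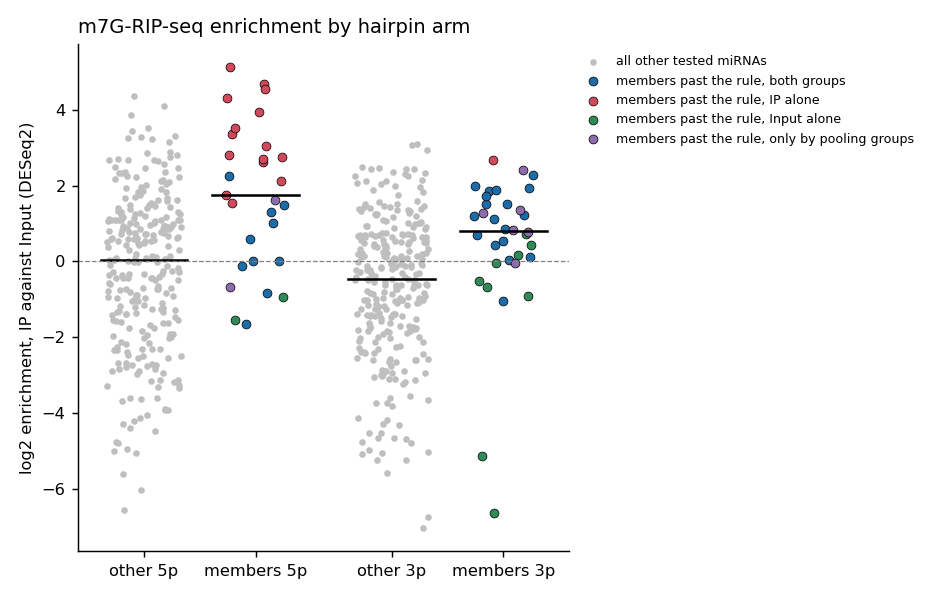
The vertical axis is the log2 enrichment of IP over Input fitted by DESeq2, and each point is 1 miRNA (grey, other tested miRNAs; coloured, members by the groups through which they passed the count rule). Lines mark medians, which are 1.75 for 5p members and 0.81 for 3p members; the upper end of the 5p members is made of those that passed through IP alone, and the 2 lowest members, both 3p, had no IP count.

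Scaling to total counts in place of median-of-ratios factors moved the median of all 793 miRNAs from -0.01 to 0.37 and gave 257 enriched and 185 depleted miRNAs in place of 196 and 229. Enrichment is thus relative to the typical miRNA of the assay. Under total-count scaling 29 members were enriched and 3 depleted. All 25 enriched members had a log2 enrichment above 0 both in replicates 1 to 3 alone and in replicates 4 and 5 alone. Of these, 7 were called in each of the 2 sets, 9 in the first alone, 3 in the second alone and 6 in neither. In 13 members every IP library was above every Input library, and in 3 every IP library was below, where 15.4% and 22.2% of all tested miRNAs were so separated.

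The member with the highest mean normalized count, 307, was miR-6724-5p, whose m7G-RIP-seq counts were all multiples of 4. The next highest was miR-6747-3p at 132, so the first rank is uncertain. The normalized counts of miR-6724-5p were 191, 152, 196, 158 and 113 in Input replicates 1 to 5 and 475, 618, 569.9, 320.1 and 275 in IP replicates 1 to 5. Every IP library was above every Input library, and the log2 enrichment was 1.48 ± 0.29 (SE, adjusted p = 1.41e-06 in DESeq2). miR-6723-5p, for which no sequence was matched, had 47.7, 63.7, 59.6, 74.4 and 60.9 in Input and 104, 103, 72.3, 69.0 and 112 in IP. The groups overlapped, since the lowest IP libraries fell below the highest Input library. Its log2 enrichment of 0.59 ± 0.26 (adjusted p = 0.0419 in DESeq2) lay just past the threshold. The adjusted p was 0.123 with the replicate block, and 0.0727 to 0.164 when IP replicate 1, 2 or 5 or Input replicate 1, 2, 3 or 5 was left out.

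The other two abundant 5p members were not enriched. miR-6744-5p, the 5p member without a run of 3 G, had 118, 131, 121, 43.2 and 46.4 in Input and 179, 123, 84.7, 26 and 48.3 in IP. Both groups were high in replicates 1 to 3 and low in replicates 4 and 5, and the group means were 92.1 ± 43.4 and 92.1 ± 60.8 (SD, n = 5 each), with a log2 enrichment of 0.00 ± 0.53 (adjusted p = 0.998 in DESeq2). miR-6840-5p, from a 1509-base intron of PILRB (chr7:100356656-100356679, plus), had 101, 93.9, 125, 149 and 174 in Input. It had 19.6, 41.3, 41.3, 30 and 71.2 in IP, below Input in every library. It was the 1 depleted 5p member, with a log2 of -1.66 ± 0.37 (adjusted p = 2.68e-05 in DESeq2), and its G share of 25% was the lowest of the 24 sequenced 5p members.

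The largest enrichments among members with non-overlapping groups were those of G-rich 5p strands that were near 0 in Input. All of those in this paragraph passed the count rule through IP alone, so their direction was strongly favoured by the choice. miR-6741-5p had 6.82, 5.79, 6.31, 5.00 and 3.20 normalized counts in Input and 49.6, 66.9, 49.6, 70.0 and 36.9 in IP. The lowest IP library was far above the highest Input library, with means of 5.43 ± 1.41 and 54.6 ± 13.7 (SD, n = 5 each), and the log2 enrichment was 3.37 ± 0.42 (adjusted p = 1.08e-14 in DESeq2). miR-6819-5p, at the edge of the count rule, had 0, 0, 2.10, 0 and 0.534 in Input and 17.0, 14.6, 12.4, 7.0 and 12.7 in IP. Input thus rested on 4 counts over 5 libraries, and the log2 enrichment of 4.54 ± 1.04 (adjusted p = 5.02e-05 in DESeq2) is imprecise for that reason.

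Both strands with the seed UGGGAGG were higher in IP, which the choice favoured, as each passed the count rule through IP alone. miR-6779-5p had 1.14, 1.29, 13.3, 1.88 and 1.60 in Input and 41.8, 47.4, 33.0, 17.0 and 19.1 in IP (log2 3.03 ± 0.76, adjusted p = 0.00022 in DESeq2). miR-6780a-5p had 1.14, 8.36, 0, 0.625 and 1.07 in Input and 23.5, 51.1, 26.8, 10.0 and 17.8 in IP (log2 3.51 ± 0.90, adjusted p = 0.00035). In each of the pair 1 Input library stood above the other 4, replicate 3 for miR-6779-5p and replicate 2 for miR-6780a-5p, and still lay below the lowest IP library.

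A further 3 5p strands had no overlap between groups, and they too passed the count rule through IP alone, so that a higher level in IP was favoured by the choice. miR-6734-5p, from a 90-base intron of the fatty acid elongase gene ELOVL1, had 1.14, 8.36, 2.80, 3.75 and 0.534 in Input and 24.8, 20.7, 14.5, 18 and 25.4 in IP (log2 2.62 ± 0.69, adjusted p = 0.000432 in DESeq2). miR-6730-5p, from an intron of the retinal reductase gene DHRS3, had 2.27, 0, 1.4, 2.50 and 4.80 in Input and 13.1, 18.2, 6.19, 11 and 26.7 in IP (log2 2.76 ± 0.80, adjusted p = 0.00165). In both the IP libraries of replicates 4 and 5 were as high as those of replicates 1 to 3. miR-6850-5p was 4.55, 6.43, 0, 6.25 and 0 in Input and 32.6, 14.6, 53.7, 10.0 and 10.2 in IP (log2 2.81 ± 0.97, adjusted p = 0.00855). Its call rested on IP replicate 3, without which the log2 was 2.27 and the adjusted p 0.0593.

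**Figure D3:**
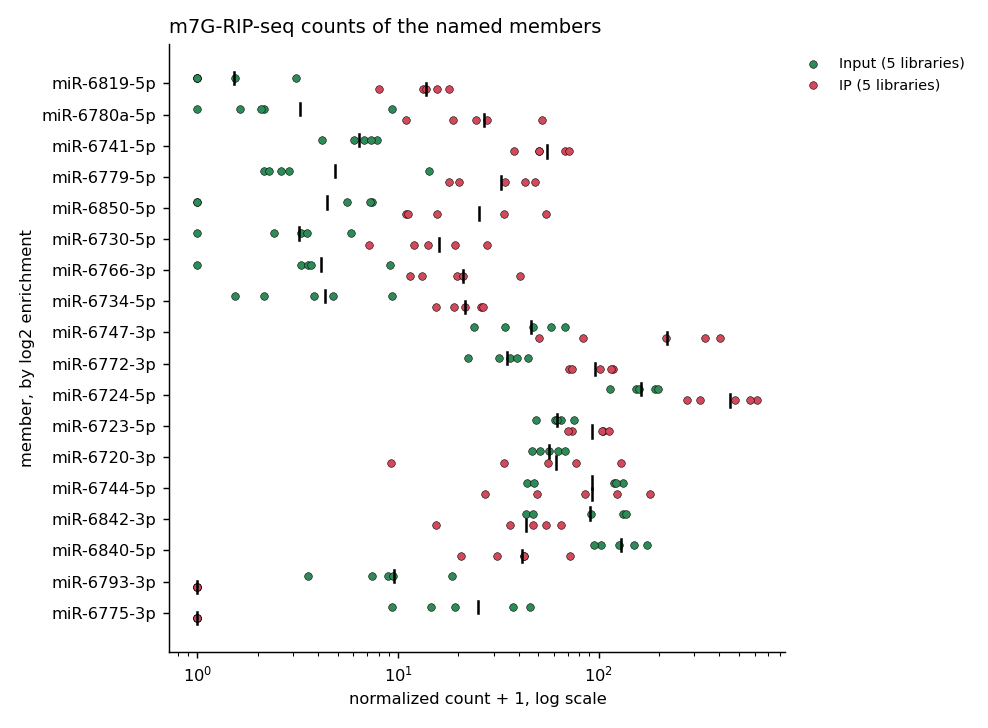
Normalized counts plus 1 (horizontal, log scale) of the 8 members highest on average and of those with the largest separated changes, ordered by log2 enrichment, with 1 point per library (green, 5 Input; red, 5 IP) and a line at each mean. Between miR-6819-5p and miR-6734-5p every IP point lies to the right of every Input point, and miR-6775-3p and miR-6793-3p have all 5 IP libraries at 0.

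On the 3p arm the abundant members were split. miR-6747-3p had 56.8, 66.9, 46.3, 33.1 and 23.0 in Input and 402, 339, 217, 83.0 and 49.6 in IP (log2 2.27 ± 0.54, adjusted p = 0.000102 in DESeq2). The IP libraries of replicates 1 to 3 were all above those of replicates 4 and 5, and IP replicate 5 fell within the Input range. In replicates 4 and 5 alone the log2 was 1.20 (adjusted p = 0.0958). miR-6772-3p, which ends 1 base before the end of a 2691-base intron of the kinesin gene KIFC3 (chr16:57772290-57772312, minus), had 35.2, 30.9, 43.5, 38.1 and 21.4 in Input and 117, 114, 70.2, 101 and 72.5 in IP. All IP libraries were above all Input libraries (log2 1.5 ± 0.31, adjusted p = 3.92e-06 in DESeq2), and the value was 1.43 in replicates 1 to 3 and 1.5 in replicates 4 and 5.

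miR-6766-3p, from a 173-base intron of POLG, the mitochondrial DNA polymerase (chr15:89326742-89326763, minus), was the 1 3p member that passed through IP alone. It had 2.27, 2.57, 0, 8.13 and 2.67 in Input and 10.4, 12.2, 18.6, 20 and 39.4 in IP, with no overlap (log2 2.66 ± 0.78, adjusted p = 0.00184 in DESeq2). miR-6720-3p, which lies outside annotated introns, had 61.4, 55.3, 67.3, 50 and 45.4 in Input and 54.8, 32.8, 8.26, 128 and 76.3 in IP. The IP libraries ran from far below to far above the Input libraries, and the log2 was 0.12 ± 0.53 (adjusted p = 0.872).

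Of the 3p members, 3 were depleted. miR-6775-3p, which ends on the last base of a 1906-base intron of SLC7A5, an amino acid transporter gene (chr16:87834592-87834612, minus), had 13.6, 8.36, 18.2, 36.3 and 44.3 in Input and 0 in each of the 5 IP libraries. miR-6793-3p, at the end of a 3814-base intron of DNM2, the gene of dynamin 2 (chr19:10829016-10829035, plus), had 7.96, 2.57, 8.41, 17.5 and 6.41 in Input and 0 in each IP library. Against a floor of 3 counts over the 5 IP libraries, the first was at least 33.7-fold lower and the second at least 11.1-fold lower in IP (adjusted p = 1.22e-07 and 0.000512 in DESeq2). Both had passed the count rule through Input alone.

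miR-6842-3p had 132, 136, 90.4, 42.5 and 45.9 in Input and 64.0, 35.3, 14.5, 46.0 and 53.4 in IP, and the groups overlapped. Its log2 of -1.05 ± 0.47 (adjusted p = 0.0492 in DESeq2) was past the threshold by little. It was -1.68 in replicates 1 to 3 alone (adjusted p = 0.00701) and 0.11 in replicates 4 and 5 alone (adjusted p = 0.888). The adjusted p was 0.0664 with the replicate block, and 0.056 to 0.157 when IP replicate 2, 3, 4 or 5 or Input replicate 1, 2 or 3 was left out.

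The remaining called members were all enriched. They were miR-6758-5p and miR-6799-5p of the 5p arm and miR-6784-3p, miR-6789-3p, miR-6812-3p and miR-6843-3p of the 3p arm, named after their values were seen, and miR-6759-5p, at the edge of the count rule. miR-6758-5p, miR-6799-5p and miR-6759-5p passed the count rule through IP alone, so their higher level in IP was favoured by the choice. miR-6759-5p had 1.14, 0, 2.80, 0 and 0 in Input and 13.1, 7.30, 53.7, 2.00 and 20.3 in IP, which overlapped (log2 4.68 ± 1.23, adjusted p = 0.000461 in DESeq2). The third-highest raw count of miR-6759-5p and of miR-6819-5p was 10, just inside the rule. It was 9 in miR-6761-5p and miR-6858-5p, just outside it. Among the members not called, miR-6763-5p (named after its values were seen, and past the count rule through IP alone) had 0, 9.01, 0, 0 and 0 in Input and 37.9, 43.8, 95.0, 0 and 5.09 in IP, with overlap. It gained a call with the replicate block, where its log2 was 5.15 ± 1.30 (adjusted p = 0.000213 in DESeq2) in place of 4.32 ± 2.20 (adjusted p = 0.0848). The 13 5p members not called ranged from -1.54 to 4.32 on the log2 scale and the 21 3p members not called from -0.90 to 2.41.

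The 6 hairpins with both arms among the members allowed the arms to be compared within a library, where depth and size factors cancel. For each library the log2 of the ratio of 3p to 5p counts was taken, each with 0.5 added, and limma tested IP against Input over all 184 hairpins of the table with both arms past the filter. Of these, 42.9% changed, 27.2% with a lower ratio in IP. None of the 6 member hairpins changed in limma, 2 had an unadjusted p under 0.05, and in 5 the ratio was lower in IP on average. For 4 of the 6 the choice of members favoured the direction seen. The 5p strands of miR-6741, miR-6777 and miR-6894 passed the count rule through IP alone, which favours a lower ratio. The 3p strand of miR-6766 did so too, which favours a higher ratio. The median difference over all 184 was -0.47.

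miR-6894 had ratios of 4.39, 1.87, 2.12, 3.46 and 2.45 (log2) in Input and 0.79, -0.97, -0.92, 0.00 and 3.91 in IP. In 4 of 5 IP libraries the ratio was below every Input library, and IP replicate 5, where the 5p strand had no count, was above 4 of them. A lower ratio and a higher 5p level in IP were favoured by the choice, because the 5p strand passed the count rule through IP alone. The difference was -2.30 ± 0.94 (SE, adjusted p = 0.0717 in limma), and -3.13 without IP replicate 5 (adjusted p = 0.0039). Its 5p strand had 0, 0.643, 0.701, 0.625 and 3.20 normalized counts in Input and 20.9, 31.6, 16.5, 16.0 and 0 in IP (log2 3.94 ± 1.09, adjusted p = 0.000909 in DESeq2). Its 3p strand had 11.4, 3.22, 4.21, 10.0 and 18.7 in Input and 36.5, 15.8, 8.26, 16.0 and 8.90 in IP (log2 0.86 ± 0.67, adjusted p = 0.283).

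miR-6741 had ratios of -0.89, -1.44, 0.14, 0.67 and 1.43 in Input and -0.34, -0.82, -2.44, -2.38 and -1.98 in IP. The groups overlapped in replicates 1 and 2, and replicates 3 to 5 of IP were below all of Input. Here too the choice favoured a lower ratio, as the 5p strand passed the count rule through IP alone. The difference was -1.57 ± 0.64 (adjusted p = 0.0717 in limma), and it was called without IP replicate 1 (-1.89, adjusted p = 0.0401) or without Input replicate 2 (-1.93, adjusted p = 0.0375). Its 3p strand had 3.41, 1.93, 7.01, 8.13 and 9.08 normalized counts in Input and 39.2, 37.7, 8.26, 13.0 and 8.90 in IP. The 3p log2 enrichment of 1.85 ± 0.69 (adjusted p = 0.0165 in DESeq2) was 0.30 in replicates 4 and 5 alone (adjusted p = 0.854) and its adjusted p was 0.0822 with the replicate block. The adjusted p was also above 0.05 without IP replicate 1 (0.0659), IP replicate 2 (0.0656) or Input replicate 1 (0.0525).

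miR-6805 held the highest 5p counts of the 6, with 23.9, 12.9, 15.4, 11.9 and 10.7 in Input and 71.8, 101, 86.7, 36.0 and 57.2 in IP (log2 2.26 ± 0.40, adjusted p = 8.29e-08 in DESeq2). Every IP library was above every Input library. Its 3p strand had 6.82, 9.65, 7.71, 6.25 and 4.27 in Input and 27.4, 34.1, 10.3, 18 and 7.63 in IP, with IP replicate 5 inside the Input range (log2 1.51 ± 0.58, adjusted p = 0.0189). That adjusted p was 0.056 with the replicate block and 0.053 to 0.073 without IP replicate 1 or 2 or Input replicate 4 or 5. The ratio differed by -0.88 ± 0.46 (adjusted p = 0.141 in limma).

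miR-6777 had 21.6, 25.7, 21.7, 26.3 and 25.6 normalized 3p counts in Input, with little spread, and 103, 90.0, 196, 17.0 and 47.1 in IP (log2 1.89 ± 0.53, adjusted p = 0.00114 in DESeq2). IP replicate 4 was below all Input libraries, and in replicates 4 and 5 alone the log2 was 0.22 (adjusted p = 0.834). Its 5p strand had 1.14, 3.22, 8.41, 3.75 and 2.67 in Input and 23.5, 13.4, 6.19, 27.0 and 14 in IP (log2 2.13 ± 0.67, adjusted p = 0.00417). This strand passed the count rule through IP alone, which favours that direction, and its adjusted p was 0.265 in replicates 1 to 3 alone and 0.0564 in replicates 4 and 5 alone. The ratio differed by -0.63 ± 0.89 (adjusted p = 0.581 in limma).

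miR-6766 was the 1 hairpin of the 6 whose ratio was higher in IP, by 1.88 ± 0.98 (adjusted p = 0.141 in limma). That direction was favoured by the choice, because its 3p strand passed the count rule through IP alone and its 5p strand only when the groups were pooled. The 5p strand had 3.41, 4.50, 0.701, 6.25 and 2.14 in Input and 20.9, 20.7, 0, 4.00 and 6.36 in IP (log2 1.62 ± 0.95, adjusted p = 0.139 in DESeq2). Replicates 1 and 2 of IP were high for this strand and replicate 3 had no count, and without IP replicate 3 the strand was called (log2 1.89, adjusted p = 0.0482). miR-6862, with 2 loci, had 6.82, 15.4, 32.3, 15 and 14.9 in Input and 0, 68.1, 45.4, 20 and 38.1 in IP for 5p (log2 1.02 ± 0.79, adjusted p = 0.279). Without IP replicate 1, where this strand had no count, its log2 was 1.34 and it was called (adjusted p = 0.0233). Its 3p strand had 15.9, 0, 0, 5.00 and 7.47 in Input and 2.61, 24.3, 0, 0 and 0 in IP (log2 -0.06 ± 1.86, adjusted p = 0.985), and its ratio differed by -0.48 ± 1.96 (adjusted p = 0.862 in limma).

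**Figure D4:**
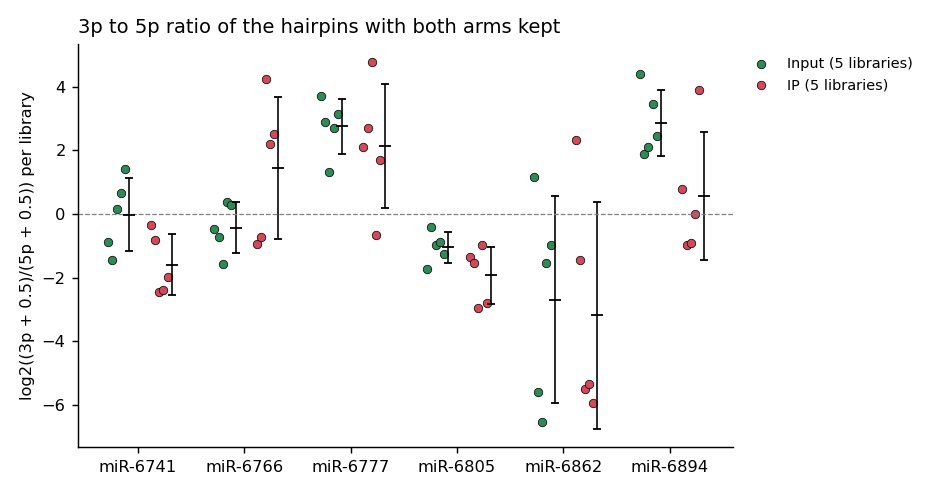
The vertical axis is the log2 ratio of 3p to 5p counts (0.5 added to each) per library for the 6 hairpins with both arms kept, with 5 Input (green) and 5 IP (red) libraries and bars of mean and SD. Input and IP points overlap in every hairpin; the differences of means run from -2.30 in miR-6894 to 1.88 in miR-6766.

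BoRed-seq libraries took no part in choosing the members, and in them most members were below the filter of the test. Only 3 members had at least 10 counts in 2 of the 4 libraries, which is that filter. The Ctrl libraries had a count for 39 and 41 members and the Red libraries for 21 and 20. There were 8 members with 0 counts in all 4 libraries and 34 with 0 in both Red libraries, where 3 counts make up 0.00108% to 0.00124% of a library. Of the 3 members tested, 2 were enriched and 0 depleted. Over the 400 miRNAs with an adjusted p, 32.2% were enriched and 27.2% depleted.

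miR-6723-5p had raw counts of 15 and 12 in Ctrl and 59 and 84 in Red, although the Red libraries were smaller. As normalized counts these were 4.15 and 4.46 in Ctrl and 218 and 206 in Red. The groups were far apart, with a log2 enrichment of 5.62 ± 0.50 (adjusted p = 1.53e-28 in DESeq2). miR-6724-5p had raw counts of 164 and 244 in Ctrl and 116 and 132 in Red, or 45.4 and 90.7 against 429.6 and 323 normalized. Both Red libraries were above both Ctrl libraries (log2 2.47 ± 0.43, adjusted p = 4.39e-08). Both calls held in every BoRed-seq alternative run.

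miR-6842-3p had raw counts of 19 and 16 in Ctrl and 3 and 0 in Red. Its normalized counts of 5.26 and 5.95 in Ctrl lay between those of the Red libraries, 11.1 and 0, and the log2 was -0.13 ± 1.64, with no adjusted p because DESeq2 set it aside for its low mean. Both miR-6723-5p and miR-6724-5p were thus enriched in Red and in IP, the first in IP only by the narrow margin given above. miR-6724-5p lies outside annotated introns and no position was matched for miR-6723-5p, so neither is shown to be intronic. Total-count scaling moved the median log2 of all 453 miRNAs in the BoRed-seq fit from -0.32 to 0.76 and gave 175 enriched and 46 depleted in place of 129 and 109.

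The other 60 members were read as sums. In Ctrl the 27 5p members below the filter held 54 and 28 counts and the 33 3p members 53 and 49. In Red they held 20 and 20 counts (5p) and 10 and 20 counts (3p). Normalized, the 5p sums were 14.9 and 10.4 in Ctrl and 74.1 and 48.9 in Red, and the 3p sums were 14.7 and 18.2 in Ctrl and 37.0 and 48.9 in Red. The normalized sums were higher in Red for both arms, on at most 20 counts per library in Red, while the raw sums were lower there. A lean toward Red was also present over all rows: with no filter the median log2 of 1266 BoRed-seq rows was 0.74.

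Because the count rule can pick a direction, all rows of the block were also summed with no filter, 175 5p rows and 172 3p rows. The summed 5p counts, normalized, were 820, 840.2, 815, 739.8 and 636 in Input and 1654, 1964, 1706, 1241 and 1226 in IP. Every IP library was above every Input library, with means of 770.0 ± 84.1 and 1558 ± 319 (SD, n = 5 each), a log2 difference of 1.02. The summed 3p counts were 713, 704, 663, 769 and 682 in Input and 1662, 1340.1, 1299, 916 and 944 in IP, again with no overlap and a log2 difference of 0.80. In both arms the IP libraries of replicates 1 to 3 were above those of replicates 4 and 5. Without the 3 most abundant rows of each arm the differences were 1.33 for 5p and 0.70 for 3p, and no test was made of these sums. In BoRed-seq the same sums were 70.0 and 111.9 in Ctrl and 811 and 634 in Red for 5p, and 28.0 and 32.4 in Ctrl and 241 and 206 in Red for 3p. These are log2 differences of 2.99 and 2.89, which were 2.77 and 1.97 without the 3 highest rows of each arm. The raw sums were 253 and 301 in Ctrl and 219 and 259 in Red for 5p. For 3p they were 101 and 87 in Ctrl and 65 and 84 in Red. Size factors were 3.61 and 2.69 in Ctrl and 0.27 and 0.41 in Red. Over all 1266 BoRed-seq rows with a count, fitted with no filter, the median log2 was 0.74, so a lean toward Red was not confined to the block. Here miR-6724-5p and miR-6723-5p led the 5p sum, and miR-6748-3p, which failed the count rule and is named after its values were seen, led the 3p sum with raw counts of 9 and 8 in Ctrl and 28 and 30 in Red (log2 5.02 ± 0.66, adjusted p = 2.4e-13 in DESeq2).

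**Figure D5:**
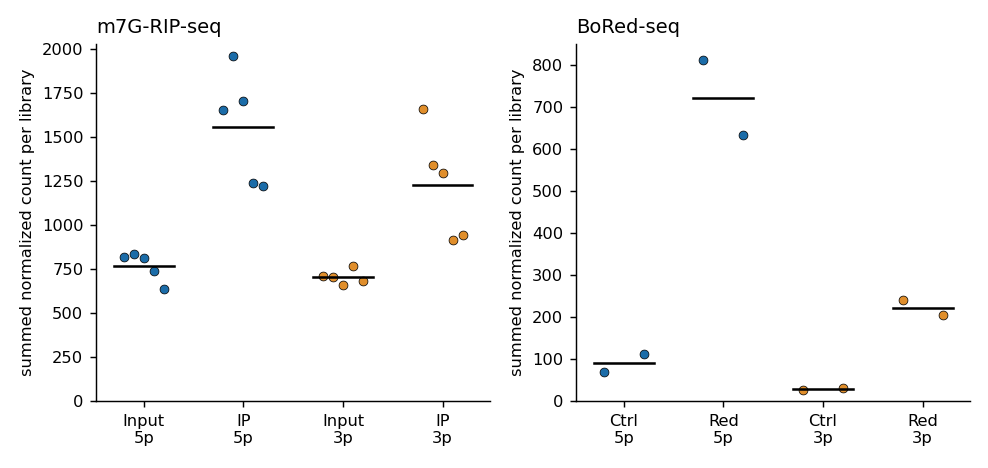
Each point is the summed normalized count of all block rows of an arm in 1 library (blue, 175 5p rows; orange, 172 3p rows), with lines at the means, for m7G-RIP-seq on the left and BoRed-seq on the right. In m7G-RIP-seq the 5p sum was 1226 to 1964 in IP against 636 to 840.2 in Input.

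Base composition and enrichment were set side by side as a description across miRNAs, which share libraries and are not replicates. The members' log2 values come from the libraries that the count rule read. Of the 29 5p members, 15 passed it through IP alone, with a median log2 of 3.03. For the 10 that passed in both groups the median was 0.29. The correlations over members carry that choice and support nothing by themselves. Over the 24 sequenced 5p members, Pearson's r between the percentage of G and the log2 enrichment was 0.47 (Spearman's rho 0.38), and between the percentage of C and the log2 enrichment it was -0.70 (rho -0.73). The value for C was -0.05 (rho 0.10) over the 3p members, -0.14 (rho -0.23) over the other 5p strands and 0.08 (rho 0.03) over the other 3p strands. Over the 29 sequenced 3p members, which hold few G, r for G was -0.22 (rho -0.17). Over the other tested miRNAs r for G was 0.50 for 252 5p strands and 0.30 for 266 3p strands.

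Among 3p members the medians were similar by position in the intron. The count rule did not use position, but it read the libraries that gave these calls and log2 values. Of the 21 that ended on the intron's last base 6 were enriched and 2 depleted, with a median log2 of 0.79, where 17.0% of all 3p rows tested were enriched and 33.0% depleted. Of the 8 other 3p members with a position, 2 were enriched and 0 depleted, with a median of 0.82. By intron length, 5 of the 8 5p members in introns of at most 200 bases were enriched and 0 depleted, with a median of 2.19. In longer introns 7 of 15 were enriched and 1 depleted, with a median of 2.70, and over all 5p rows 30.1% were enriched and 29.5% depleted. Of the 15 enriched 5p members, 12 had passed the count rule through IP alone, which favoured that direction. Of the 3p members 5 of 16 in the short introns were enriched and 0 depleted, and 3 of 12 in longer ones were enriched and 2 depleted, with medians of 0.77 and 0.95.

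As a scale, the same values are given for 2 other sets of rows. The earlier-numbered mirtrons (miR-877 and miR-1224 to miR-1237) had 22 rows, of which 9 passed the count rule, 3 were enriched and 1 depleted in m7G-RIP-seq, with a median log2 of 0.71. The block numbered 4251 to 4810, also entries found late, had 504 rows, of which 84 passed, 30 were enriched and 9 depleted, with a median of 0.74. Over all 793 tested miRNAs 24.7% were enriched and 28.9% depleted. The members' median was 1.23 over both arms. No test was made between these sets, which have the same libraries in common.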

How the data were processed

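The deposited files held raw read counts per mature miRNA for 14 A549 libraries, 1 table per assay. Per the study's methods, the authors trimmed adaptors with Trimmomatic, aligned 50-base single-end reads to GRCh38/hg38 with STAR (up to 1 mismatch and 10 loci per read) and counted reads over mature miRNAs with featureCounts; the submitters' processing notes name Bowtie2 as well, and versions are not given in the sources used here. Counts were neither normalized nor pooled by the authors, and reads that fit several loci leave the counts of multi-locus members uncertain. No table row was without a miRNA name and 0 columns matched no sample.

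Groups came from the sample labels. IP was tested against Input (793 miRNAs with at least 10 counts in 3 libraries) and Red against Ctrl (453 with at least 10 counts in 2) by the Wald test in DESeq2 1.42.0 (R 4.3.3), as in the study, with median-of-ratios factors, unshrunken log2 values and Benjamini-Hochberg adjustment over all miRNAs tested. Arm ratios were tested with limma 3.58.1 over 184 hairpins. DESeq2 gave no adjusted p to low-mean miRNAs, so 400 BoRed-seq miRNAs had one. Tested on simulated counts in which 200 miRNAs differed by 2 on the log2 scale, DESeq2 found 71.0% of them among the 793 miRNAs of m7G-RIP-seq (11 false calls) and 60.0% among the 453 of BoRed-seq (0 false calls); limma recovered 23.3% of 30 changed ratios of 184, with 0 false calls. The changed miRNAs of the simulation were drawn from all those tested, whose median Input level was 5.07 CPM against 0.94 for the members. Recovery among the members alone was not measured. Intervals and floors of 3 counts cover counting error only, since the tables hold no molecular identifiers.

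Same-numbered IP and Input replicates deviated together: the correlation of their deviations was 0.18 to 0.40 over 5 pairs, every one above 0.1, so blocked fits are given where they change a call. Every replicate pair differed by more than counting error (smallest chi-square 10.7 times its degrees of freedom), so each library was kept as a replicate. Introns came from GENCODE v44 and sequences from RefSeq (GRCh38.p14), the same build as the alignment.

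The members and lists were chosen with earlier results of these data known. Named members were the 8 with the highest mean normalized count, per direction the 8 largest changes among called members without overlap between groups, those past the BoRed-seq filter, both arms of hairpins with both kept, and the 2 members just inside and 2 rows just outside the count rule; 6 other called members were named after their values were seen. Alternatives covered filters, size factors, edgeR 4.0.16 with TMM factors, replicate sets, pseudocounts and left-out replicates.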

Additional observations from a re-analysis of the deposited data

Results flagged for a closer look

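In a group of 5 libraries, 1 library was called far from the rest where its gap to the nearest other library exceeded 0.71 of the group's range (Dixon's critical value at 95%). Of 62 such groups over the named members in m7G-RIP-seq, 6 met this, and about 1 in 20 would by chance. In Input, miR-6779-5p was 13.3 normalized counts in replicate 3 against 1.14 to 1.88 in the others, miR-6780a-5p was 8.36 in replicate 2 against 0 to 1.14, miR-6819-5p was 2.10 in replicate 3 against 0 to 0.534, and miR-6894-5p was 3.20 in replicate 5 against 0 to 0.701. In IP, miR-6862-3p was 24.3 in replicate 2 against 0 to 2.61, and miR-6894-3p was 36.5 in replicate 1 against 8.26 to 16.0. All but miR-6894-3p are groups with few counts outside the library that stood apart.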

How the results depend on the processing

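The members were counted from few reads, and a stricter filter leaves few of them to test. With 10 counts in 5 libraries, enriched 5p members were 9, depleted members 2 and depleted 3p members 1. Of all 670 miRNAs tested with that filter, 183 were enriched and 200 depleted. With 10 counts in every library, 9 members were left. Of these, 6 were enriched (3 5p, 3 3p) and 1 depleted, and depleted 3p members were 0. Of all 362 miRNAs tested with that filter, 128 were enriched and 116 depleted. Among members that passed in both groups, 12 were enriched (3 5p) and 2 depleted (1 3p), where 24.7% and 28.9% of all 793 tested miRNAs were. In replicates 4 and 5 alone 10 members were enriched (7 5p, 3 3p), where 179 of all 793 tested miRNAs were enriched and 237 depleted. Leaving out 1 replicate gave 21 to 26 enriched members (14 to 16 5p, 7 to 11 3p) and 3 to 4 depleted (1 to 1 5p, 2 to 3 3p), and in BoRed-seq 2 to 2 enriched and 0 to 0 depleted. Over all 793 miRNAs, leaving out 1 replicate of m7G-RIP-seq gave 176 to 197 enriched and 200 to 232 depleted. The replicate block in m7G-RIP-seq gave 23 enriched and 3 depleted members (4 calls lost and 1 gained) and 0 changed hairpins. Over all 793 miRNAs that block gave 205 enriched and 264 depleted. In BoRed-seq, where only 2 pairs share a number (correlation 0.11), the block left 2 members enriched. Of all 453 miRNAs in that fit, 119 were enriched and 98 depleted. Changed member hairpins were 1 with a pseudocount of 1, 1 in replicates 1 to 3, 3 in replicates 4 and 5, and 0 to 1 with 1 replicate left out. Of all 184 hairpins, the ratio was called higher in 28 and lower in 52 with a pseudocount of 1. These numbers were 22 and 40 in replicates 1 to 3, and 32 and 56 in replicates 4 and 5. With 1 replicate left out they were 25 to 31 and 42 to 53, and with the block 27 and 48. Total counts gave a log2 of 1.39 for the summed 5p rows.

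The signs of 8 named values turned, none of them called in that setting; the cause was not tested. For miR-6744-5p the log2 was -0.012 with TMM factors in DESeq2 or edgeR, -0.061 with a term for replicate sets, -0.0047 with no filter, -0.12 with the replicate block, -0.34 in replicates 4 and 5, and -0.39 to 0.25 with 1 replicate left out. For miR-6862-3p it was 0.74 in replicates 1 to 3, 0.24 with total counts and -3.01 to 0.74 with 1 left out. For miR-6720-3p it was -0.10 with the set term, -0.22 with the block, -0.96 in replicates 1 to 3 and -0.35 to 0.37 with 1 left out. In replicates 4 and 5 miR-6842-3p was at 0.11 and miR-6894-3p at -0.25. In BoRed-seq miR-6842-3p was at 0.86 with total counts and -3.49 to 0.91 with 1 left out. The ratio difference in replicates 1 to 3 was 0.55 for miR-6777 and 2.12 for miR-6862, and with 1 left out -1.29 to 0.066 and -1.86 to 0.48.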
